A study of Mus musculus with 63 samples.

Results

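The protocadherin genes were taken as every protein-coding gene in the deposited annotation whose symbol starts with Pcdh, which gave 68 of the 55291 gene symbols counted. Of these, 56 lie in the clusters on chromosome 18 (GRCm38, chr18:36930184-37841873), namely 11 alpha, 22 beta, 12 gamma A, 6 gamma B and 5 C-type genes. The other 12 are the non-clustered genes Pcdh1, Pcdh7, Pcdh8, Pcdh9, Pcdh10, Pcdh11x, Pcdh12, Pcdh15, Pcdh17, Pcdh18, Pcdh19 and Pcdh20, of which Pcdh1 and Pcdh12 are also on chromosome 18. The data came from organotypic entorhino-hippocampal slice cultures, prepared at postnatal day 3 to 5 from mice of either sex and kept in vitro for at least 18 days. Wildtype (Synpo+/+) cultures came from C57BL/6J mice, and synaptopodin-deficient (Synpo-/-) cultures from the back-crossed strain B6.129-Synpotm1Mndl/Dllr. Entorhinal cortex lesion (ECL) cut the perforant path, and lesioned cultures were collected 3 days later.

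In the regional data set each of the 39 libraries held the dentate gyrus (DG) or the CA3 area cut from 1 culture. Controls comprised 4 wildtype DG, 2 wildtype CA3, 7 Synpo-/- DG and 6 Synpo-/- CA3 libraries, and lesioned cultures gave 7, 3, 4 and 6 libraries in the same order. The other 24 libraries came from pools of whole cultures, 6 per replicate by the protocol, homogenized in a solution with cycloheximide. Every lysate was split into an input and a synaptopodin co-immunoprecipitate (coIP), with 5 wildtype control, 5 wildtype ECL and 2 Synpo-/- pairs. The lesion status of the Synpo-/- pairs is not given in the labels. Total counts were 14055930 to 46043990 per regional library and 11601154 to 53682143 per input or coIP library. Nothing states whether cultures came from separate animals, so p-values measure the spread between cultures or pools.

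Protocadherins are cell-surface proteins of the cadherin superfamily that bind their own kind on a neighbouring cell. In the alpha and gamma clusters each variable exon has its own promoter and is spliced to constant exons shared by the whole cluster, whereas each beta gene is a single exon. A neuron switches on a small, largely random choice of these promoters together with C-type genes, under the control of CTCF, cohesin and DNA methylation, and the resulting surface code serves dendrite self-avoidance. Non-clustered protocadherins have single loci, are expressed in restricted sets of neurons and act in adhesion, sorting and synapse remodelling.

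Synpo, which encodes the actin-binding protein of the spine apparatus, had 22.5 ± 2.36 CPM (counts scaled to a common library size) in wildtype DG controls (SD, n = 4) and 51.8 ± 9.32 CPM in DG controls labelled Synpo-/- (n = 7). It was thus higher in the DG controls labelled Synpo-/- (log2 difference 1.17 ± 0.13 SE, edgeR adjusted p = 0.000517). Means were also higher with this label in DG ECL (38.2 against 29.4 CPM), CA3 controls (40.45 against 25.85) and CA3 ECL (40.5 against 35.4). Whole-culture inputs had 28.18 ± 2.48 CPM with the label (n = 2) and 26.15 ± 4.44 in wildtype controls (n = 5). The coIPs of these groups had 28.2 and 35.7 CPM. Libraries with this label are therefore called labelled Synpo-/- throughout, and directions by genotype rest on the labels alone. Synpo lies on the same chromosome as the protocadherin clusters, so the deleted gene and any strain sequence linked to it cannot be told apart.

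Expression per kilobase of exon not shared with another gene (CPM per kb) was led by 1 non-clustered gene in every culture type. In wildtype control inputs (n = 5) Pcdh9, a neuronal adhesion molecule of the delta-1 group, reached 114.3 ± 2.41 CPM per kb (mean ± SD). The next in order were Pcdhb9 at 20.02 ± 1.26, Pcdhb7 at 11.2 ± 1.54, Pcdh7 at 11.2 ± 0.755 and Pcdh20 at 9.61 ± 0.468 CPM per kb. The gaps from Pcdh9 to Pcdhb9 and from Pcdhb9 to the rest were wider than the spread between pools, whereas Pcdhb7 and Pcdh7 were not separated. Pcdhb20 followed at 7.76 ± 0.862. The C-type gene Pcdhac2 (5.91 ± 0.803), the epilepsy gene Pcdh19 (5.12 ± 1.35) and Pcdh17 (5.02 ± 0.508) formed a further group whose spreads overlapped. The median gene reached 2.22 CPM per kb among the non-clustered genes, 2.03 among alpha, 1.64 among beta, 1.07 among C-type, 0.657 among gamma A and 0.392 among gamma B genes. Pcdh12, an endothelial protocadherin, was near the bottom, with 0.0351 ± 0.0481 CPM in the same inputs.

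**Figure D1:**
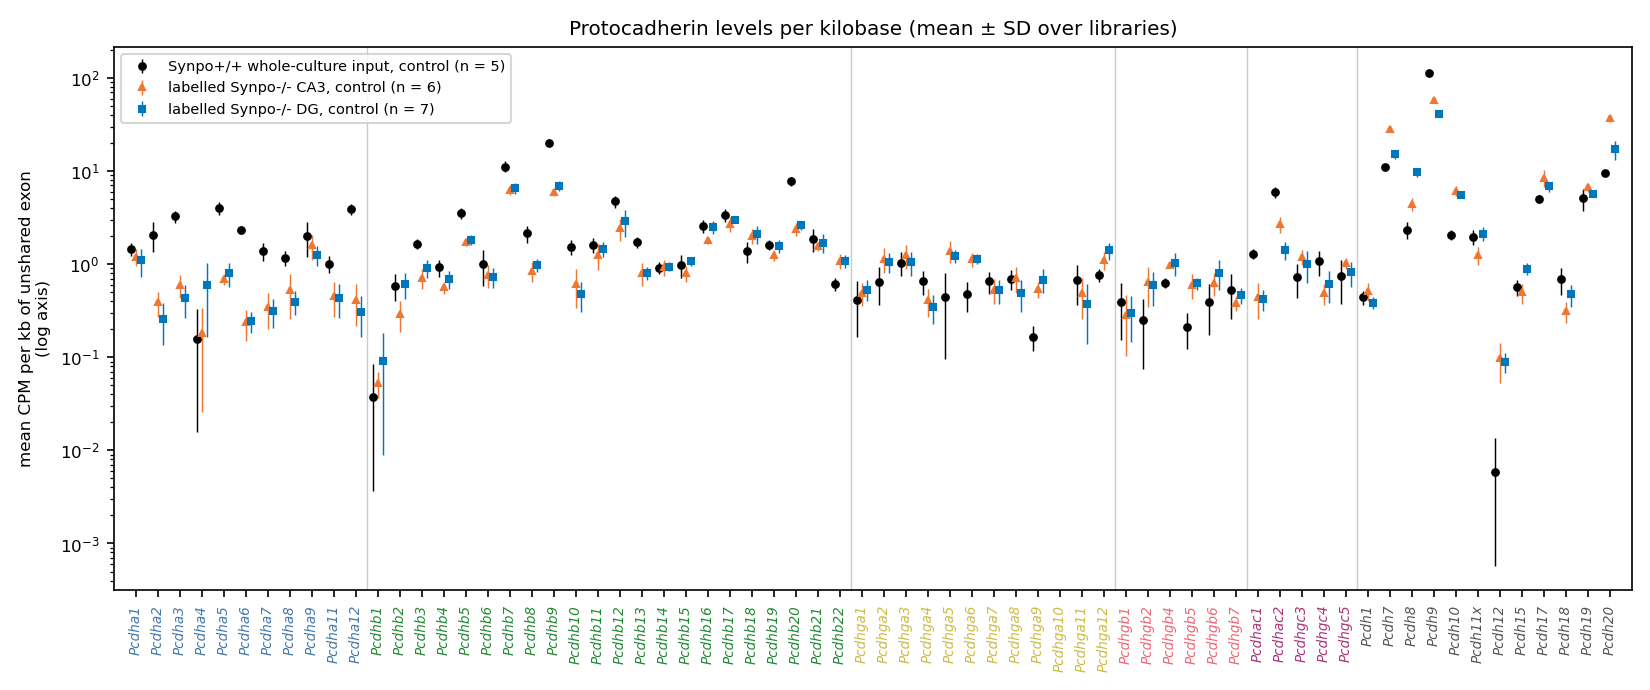
Mean level of protocadherin genes in CPM per kb on a log axis in wildtype control input (n = 5) and in DG (n = 7) and CA3 (n = 6) controls labelled Synpo-/-, with error bars of 1 SD whose lower ends are cut at 0.1 of the mean. Pcdh9 is the highest gene in each of these groups, at 114.3, 41.5 and 57.5 CPM per kb.

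In the regional controls labelled Synpo-/- Pcdh9 again stood first, followed by Pcdh20 and Pcdh7. In DG (n = 7) these genes had 41.5 ± 2.34, 17.04 ± 3.80 and 15.1 ± 1.81 CPM per kb, and Pcdh8 followed at 9.65 ± 0.923. In CA3 (n = 6) they had 57.5 ± 3.08, 36.7 ± 2.79 and 28.0 ± 1.47 CPM per kb, and Pcdh17 followed at 8.43 ± 1.77. The spreads of Pcdh20 and Pcdh7 overlapped in DG and did not in CA3. Regional and whole-culture libraries were made from different starting material and normalized separately, so their levels stand side by side without a test.

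Summed over its members, each subfamily took a different share of the counts. In CA3 controls labelled Synpo-/- the 12 non-clustered genes summed to 1157 ± 47.6 CPM, the 22 beta genes to 143.9 ± 9.62, gamma A to 24.6 ± 2.48, C-type to 17.8 ± 1.35, alpha to 16.03 ± 1.26 and gamma B to 11.1 ± 1.69 CPM. In wildtype control inputs the same sums were 1131 ± 39.6, 256.5 ± 19.0, 16.6 ± 2.74, 29.6 ± 1.87, 53.0 ± 7.50 and 6.92 ± 2.06 CPM. Counts were uneven within the clusters. Pcdhac2, the last C-type gene of the alpha cluster, held 24.2% of the counts of that cluster in wildtype control input, 21.96% in DG and 31.8% in CA3 controls labelled Synpo-/-. Among beta genes, Pcdhb9 held 24.0% and Pcdhb7 15.3% of the counts in wildtype control input. These shares are not corrected for length, and the alpha and gamma genes have common 3′ exons. The 11 alpha genes share 2860 bases of constant exons, and the median gene shared 54.9% of its exon bases in alpha, 46.25% in gamma A, 44.3% in gamma B and 48.6% among C-types, against 0 for beta and non-clustered genes. How the authors' counting treated reads in shared exons is not given in the sources used here, so low counts in these subfamilies are uncertain. The sums of alpha, gamma and C-type genes may leave out reads in the constant exons, because Pcdhga10 took almost none from the exons it shares. Pcdhga10 has no exon base of its own and had 0 to 1 counts, and Pcdha4 had a median of 4. These 2 passed the expression filter in no comparison, 61 genes passed it in all 20, and 63 to 66 were tested per comparison.

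The first comparison asked which protocadherins distinguish DG from CA3. In the larger groups, those labelled Synpo-/-, the clearest differences were in non-clustered genes: Pcdh8 was higher in DG, while Pcdh7, Pcdh20 and Pcdh9 were higher in CA3. For the genes that lead the contrast the 250 bases before the RefSeq start are shown, 5′ to 3′ on the gene's strand (RefSeq sequence, build GRCm38.p6). For Pcdh7 only the 136 bases farthest from the RefSeq start are shown. The 114 bases next to that start were left out, because an exon of the deposited annotation begins there. The Pcdh7 window therefore ends just before the annotated gene start. Capitals mark a TATAAA or a CCAAT motif, the latter read as ATTGG where it lies on the opposite strand. The windows are chr14:79771313-79771562 on the minus strand for Pcdh8, whose gene spans chr14:79766775-79771312, chr14:88471397-88471646 on the minus strand for Pcdh20 (gene chr14:88464743-88471396), and chr5:57717831-57717966 on the plus strand for Pcdh7 (gene chr5:57717967-58133230).
Pcdh8: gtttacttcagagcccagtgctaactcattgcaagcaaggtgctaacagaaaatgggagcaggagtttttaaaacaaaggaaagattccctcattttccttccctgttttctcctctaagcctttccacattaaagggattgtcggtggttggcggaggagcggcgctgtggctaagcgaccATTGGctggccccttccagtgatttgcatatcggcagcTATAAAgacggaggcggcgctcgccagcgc
Pcdh20: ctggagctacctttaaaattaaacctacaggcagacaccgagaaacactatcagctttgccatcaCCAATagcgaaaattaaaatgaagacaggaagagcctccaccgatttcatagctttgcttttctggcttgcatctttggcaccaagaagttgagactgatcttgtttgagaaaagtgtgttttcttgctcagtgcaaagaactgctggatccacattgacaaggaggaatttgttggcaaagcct
Pcdh7: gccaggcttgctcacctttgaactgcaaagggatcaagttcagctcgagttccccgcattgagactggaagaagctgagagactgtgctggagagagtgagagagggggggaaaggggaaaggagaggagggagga
The Pcdh8 window held TATAAA and CCAAT, the Pcdh20 window CCAAT alone, and the Pcdh7 window neither, and their GC contents were 51.2%, 42.4% and 55.9%. Searched on both strands, TATAAA occurred in 12.4% and CCAAT in 33.8% of 32851 promoter windows of 250 bases. GGGCGG (32.7% of windows) and TGACG (17.8%) were searched too and were found in none of these 3 windows. Promoter sequences were matched for 9 of the 68 genes.

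Control cultures labelled Synpo-/- gave the largest groups (7 DG, 6 CA3). Of 64 protocadherins tested, 9 were higher and 4 lower in DG, where 13.1% of all 21408 genes tested were higher and 12.5% lower. The share of protocadherins called higher (14.1%) was thus near the background, and the share called lower was below it. The calls were unevenly spread. Of 12 non-clustered genes 4 were higher and 3 lower, of 21 beta genes 5 were higher and 0 lower, of 5 C-type genes 1 was lower, and no alpha, gamma A or gamma B gene was called. The subfamilies also differed in count level, and they were not set against other genes of the same level. The part of level in this spread was not tested. The beta genes had positive log2 differences in 20 of 21 cases with a median of 0.26, against a median of 0.05 over all genes. Of 9 alpha genes 2 were positive, with a median of -0.22. The share of positive differences over all genes was not computed, so these sign counts are description only.

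Pcdh8 (arcadlin) is an activity-regulated protocadherin that promotes endocytosis of N-cadherin at synapses. Its level was 14.02 to 22.3 CPM (median 18.6) in CA3 and 32.2 to 43.0 CPM (median 40.8) in DG, so every DG library was above every CA3 library. The log2 difference was 1.23 ± 0.10 (edgeR quasi-likelihood test, Benjamini-Hochberg adjusted p = 3.284e-08). Pcdh7, a delta-1 protocadherin, ranged from 220.5 to 251.5 CPM (median 231.3) in CA3 and from 102.1 to 150.4 CPM (median 123.8) in DG, a log2 difference of -0.79 ± 0.08 (adjusted p = 4.582e-07). Pcdh20 ranged from 188.1 to 227.3 CPM (median 197.7) in CA3 and from 65.3 to 120.5 CPM (median 92.5) in DG, with a difference of -1.01 ± 0.11 (adjusted p = 1.601e-06). Both had all CA3 libraries above all DG libraries. Pcdh9 had a smaller difference of the same sign, from 353.2 to 416.0 CPM (median 395.0) in CA3 against 254.7 to 301.3 CPM (median 278.9) in DG, a log2 difference of -0.37 ± 0.06 (adjusted p = 0.000264), again without overlap.

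**Figure D2:**
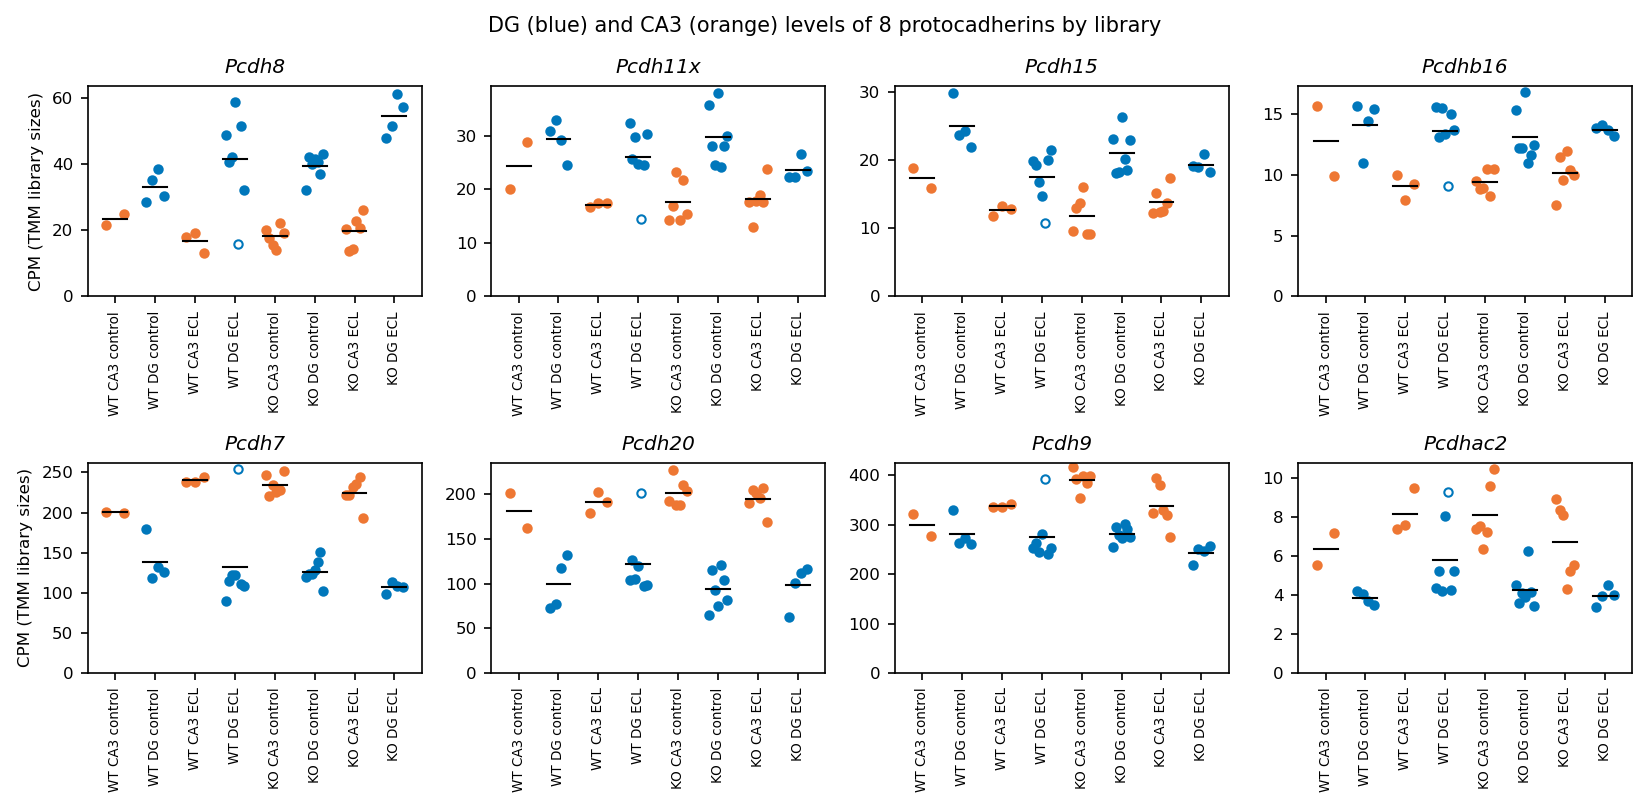
CPM of 8 protocadherin genes in each regional library by genotype (WT, wildtype; KO, labelled Synpo-/-) and lesion, with DG in blue, CA3 in orange, bars at the group means and an open circle for wildtype DG ECL replicate 5. Pcdh8, Pcdh11x, Pcdh15 and Pcdhb16 sit higher in DG, and Pcdh7, Pcdh20, Pcdh9 and Pcdhac2 higher in CA3, in controls labelled Synpo-/-.

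Further genes higher in DG were Pcdh15, the tip-link protocadherin of hair cells, at 18.2 to 26.4 CPM against 9.12 to 16.1 in CA3 (log2 difference 0.94 ± 0.15, adjusted p = 0.000134), and the X-linked Pcdh11x at 24.1 to 38.0 against 14.2 to 23.2 CPM (0.87 ± 0.14, adjusted p = 0.000124). Neither overlapped between regions. Among beta genes Pcdhb16 averaged 13.1 ± 2.15 CPM in DG and 9.42 ± 0.905 in CA3 (0.58 ± 0.13, adjusted p = 0.00174), and Pcdhb2 differed by 1.14 ± 0.29 (adjusted p = 0.0061). These 2 separated the regions completely, whereas Pcdhb9 (0.35 ± 0.10), Pcdhb19 (0.43 ± 0.13), Pcdhb15 (0.54 ± 0.18) and Pcdh18 (0.70 ± 0.23) passed the test with overlapping groups. Pcdhac2 was the C-type gene that was lower in DG, at 3.43 to 6.23 against 6.36 to 10.4 CPM in CA3 (-0.82 ± 0.15, adjusted p = 0.000346). Pcdh1, Pcdh10, Pcdh12, Pcdh17 and Pcdh19 did not pass, with differences from -0.33 for Pcdh1 to -0.04 for Pcdh10.

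In lesioned cultures labelled Synpo-/- (4 DG, 6 CA3) 3 protocadherins were higher and 4 lower in DG of 64 tested, against 7.37% and 6.24% of all genes. All of them also passed, with the same sign, in the controls with that label, making up 100.0% of the ECL calls and 33.3% of the higher and 100.0% of the lower control calls. The same overlap over all genes was not computed. Pcdh8 had 48.1, 51.6, 57.3 and 61.3 CPM in DG and 13.8 to 26.2 CPM in CA3 (log2 difference 1.47 ± 0.17, adjusted p = 3.848e-05). The others were Pcdh7 (-1.06 ± 0.10), Pcdh20 (-0.98 ± 0.15), Pcdh9 (-0.46 ± 0.11), Pcdhac2 (-0.75 ± 0.21), Pcdh15 (0.48 ± 0.13) and Pcdhb16 (0.44 ± 0.13). Among these 7 genes the groups overlapped for Pcdhac2 alone. They had already passed the test between the same libraries, and overlap was not computed over all genes, so this separation adds no further evidence.

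Wildtype controls (4 DG, 2 CA3) gave 0 protocadherins higher and 2 lower in DG of 65 tested, against 2.63% and 2.75% of all genes. Pcdh17, which links to actin regulators in presynaptic and axonal compartments, averaged 89.8 CPM in DG and 144.4 in CA3 (-0.67 ± 0.13, adjusted p = 0.00554), and Pcdh20 averaged 99.9 and 181.7 CPM (-0.85 ± 0.21, adjusted p = 0.0332). At an unadjusted p under 0.05 there were 13 genes, where 17.6% of all genes were under it, and DESeq2 called 3, all lower, where it called 3.78% of all genes lower. Differences that did not pass were 0.52 for Pcdh8 (adjusted p = 0.093), -0.52 for Pcdh7 (0.0855), 0.54 for Pcdh15 (0.0912), -0.71 for Pcdhac2 (0.10) and -0.07 for Pcdh9 (0.862), whose means were 281.5 CPM in DG and 298.7 CPM in CA3. Wildtype ECL libraries (7 DG, 3 CA3) gave 1 call, Pcdh8 at 1.38 ± 0.31 (adjusted p = 0.0395), against 1.54% of all genes higher and 0.508% lower.

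The DG library of wildtype ECL replicate 5 stood apart. Its Prox1, the granule cell transcription factor, was at 15.5 CPM against 169.8 to 216.8 in the other 6, and Pcdh8 was at 15.8 CPM against 32.3 to 58.9. The summed CA3 markers reached 1422 CPM in it, the highest of its group. In wildtype CA3 ECL libraries this sum was 1141 to 1483 CPM. The library's summed granule cell markers (114.8 CPM) and Prox1 also lay within the wildtype CA3 ECL ranges (114.6 to 128.9 and 12.7 to 17.2 CPM). The main fits keep this library under its DG label. Without this library 11 protocadherins were called between wildtype ECL regions, where 19.8% of all genes were called in either direction. Higher in DG were Pcdh8 (1.49 ± 0.17), Pcdh11x (0.75), Pcdh15 (0.61), Pcdhb16 (0.71), Pcdhb17 (0.45) and Pcdhgc4 (0.71), and lower were Pcdh7 (-1.06 ± 0.10), Pcdh20 (-0.77), Pcdh17 (-0.37), Pcdh9 (-0.35) and Pcdhac2 (-0.59).

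Cell type markers moved with the region as well, and their part in the protocadherin differences was not tested. In controls labelled Synpo-/- all 9 granule cell markers were higher in DG (summed level 530.5 to 783.8 against 118.8 to 242.0 CPM), as were all 5 Cajal-Retzius markers (153.6 to 212.6 against 29.6 to 102.2 CPM) and 5 of 8 interneuron markers, while all 7 CA3 pyramidal and all 7 oligodendrocyte markers were lower. No listed gene was at 0. In such bulk tissue fewer cells of a type and less RNA per cell cannot be told apart. Over all genes tested in these controls, 13.1% were higher in DG and 12.5% lower. Of other genes of the pathway, 7 of 14 regulators of the cluster promoters were higher in DG, such as the cohesin subunits Stag2 (0.47) and Stag1 (0.44) and the X-inactivation protein Smchd1 (0.40), and the cohesin release factor Wapl was lower (-0.28). Among 17 binding partners and signalling genes 1 was higher (Marcks, 0.77) and 9 lower, including the neuroligin Nlgn1 (-0.95), the kinase Ptk2b (-1.11) and the WAVE complex subunit Cyfip2 (-0.58). Of the protease genes of protocadherin shedding Adam10 was higher (0.35) and Psen2 lower (-0.44). Of 30 other cadherin genes tested 9 were higher (Fat4 2.38, Cdh6 1.08, Cdh7 1.31) and 7 lower (Cdh11 -0.79, Cdh10 -0.64, Cdh12 -0.49). In wildtype controls 1 partner gene was higher and 5 lower, and 3 other cadherins were higher, again Fat4 (1.99), Cdh7 (1.19) and Cdh6 (1.29), and 2 lower, Cdh11 (-0.85) and Cdh10 (-0.58). Over all genes 2.63% were higher and 2.75% lower there.

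The second comparison asked whether denervation by ECL altered protocadherin expression. Across 6 lesion contrasts 2 calls were made: Pcdh8 rose in DG labelled Synpo-/- and Pcdhb3 fell in wildtype DG. In DG labelled Synpo-/- Pcdh8 was at 48.1, 51.6, 57.3 and 61.3 CPM after ECL and at 32.2 to 43.0 CPM (median 40.8, n = 7) in controls, so the groups did not overlap. The log2 difference was 0.42 ± 0.10 (edgeR, adjusted p = 0.0135), and it was the single call among 65 genes where 5.17% of all genes were higher and 3.36% lower. DESeq2, which called 6.11% of all genes higher and 5.95% lower, called 5 protocadherins there, Pcdh8 (0.40), Pcdh1 (0.50), Pcdh11x (-0.40), Pcdh7 (-0.31) and Pcdh9 (-0.28). The Pcdh8 call was lost when ECL replicate 3 was left out and after length and GC trends were removed (0.27, adjusted p = 0.175).

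Pcdhb3, a single-exon beta gene, was at 4.28, 4.52, 4.77 and 4.89 CPM in wildtype DG controls and at 2.55 to 3.64 CPM (median 2.94, n = 7) after ECL, again without overlap. The log2 difference was -0.63 ± 0.16 (adjusted p = 0.0252), 1 call of 64 genes against 7.86% of all genes higher and 4.31% lower. DESeq2, which called 8.08% of all genes lower, called 5 protocadherins, all lower: Pcdhb3, Pcdhb14 (-0.46), Pcdh15 (-0.55), Pcdh12 (-1.22) and Pcdhgb4 (-0.63). Without ECL replicate 5, 4 genes fell, Pcdhb3 (-0.60), Pcdhb14 (-0.45), Pcdh15 (-0.45) and Pcdh7 (-0.35), against 13.8% of all genes called. The Pcdhb3 call was lost without control replicate 1, 3 or 4 and with no filter on low counts (-0.58, adjusted p = 0.0744).

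**Figure D3:**
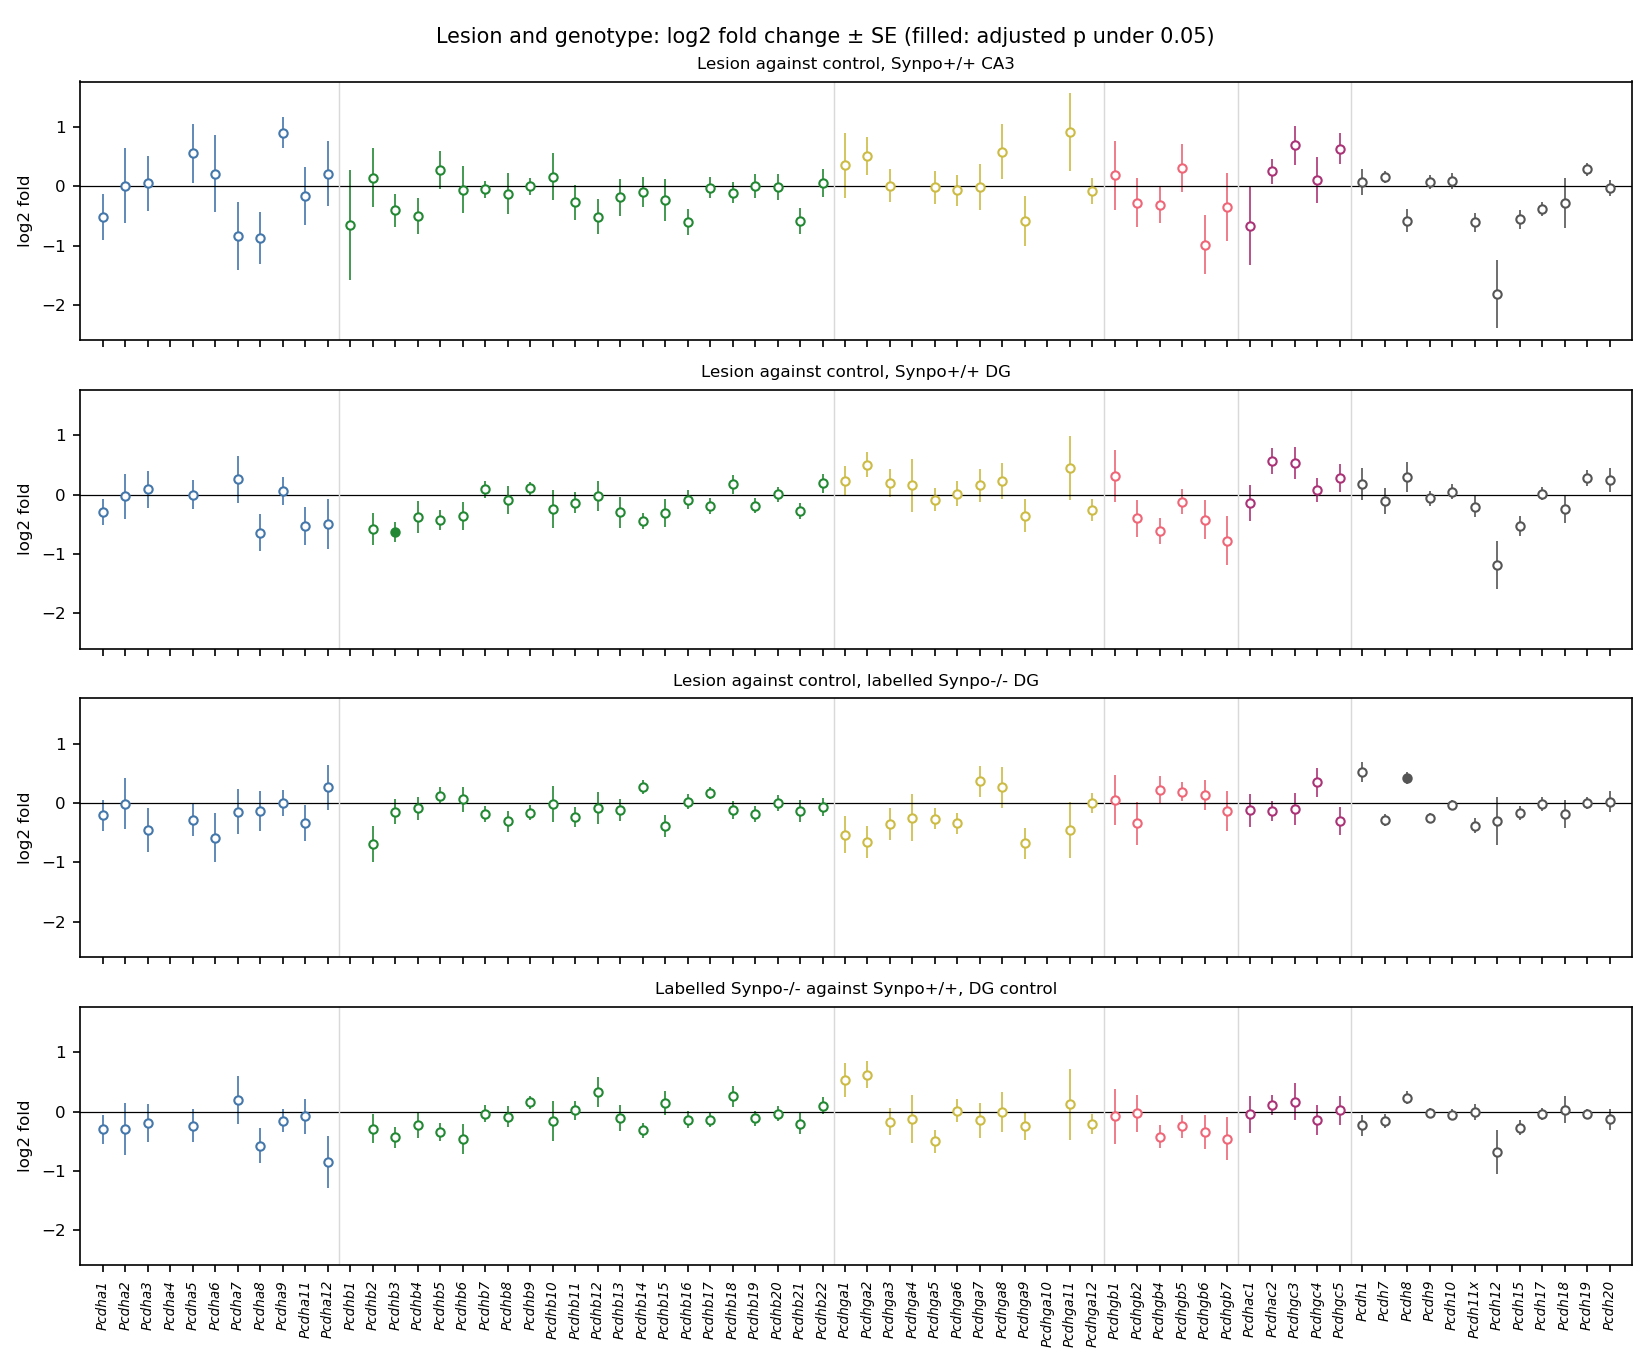
Log2 difference ± SE of each tested protocadherin after ECL in wildtype CA3, wildtype DG and DG labelled Synpo-/-, and between genotypes in control DG, with filled points for genes passing the test. Pcdhb3 (-0.63) in wildtype DG and Pcdh8 (0.42) in DG labelled Synpo-/- are the filled points.

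The effect of 1 genotype was not shown to differ from that of the other. The genotype by lesion term in DG was called for 0 of 66 protocadherins (edgeR, DESeq2 0), against 0.00381% of all genes, and 6 were at an unadjusted p under 0.05, where 10.4% of all genes were. It was 0.09 ± 0.28 for Pcdh8 (adjusted p = 0.901) and 0.45 ± 0.25 for Pcdhb3 (adjusted p = 0.484). The wildtype DG effect on Pcdh8 was 0.30 ± 0.25 (adjusted p = 0.409), and without ECL replicate 5 it was 0.43 ± 0.14 (adjusted p = 0.0529) and the genotype by lesion term -0.06 ± 0.18 (adjusted p = 0.916). The effect on Pcdhb3 in DG labelled Synpo-/- was -0.14 (adjusted p = 0.772). In CA3 the same term was called for 0 of 66 (DESeq2 0, 0.0% of all genes), with 8 at an unadjusted p under 0.05, where 17.1% of all genes were.

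In CA3 0 protocadherins were called after ECL by edgeR. Wildtype CA3 (3 against 2) had 10 of 65 genes at an unadjusted p under 0.05, where 23.9% of all genes were, and 1.78% of all genes were called. DESeq2 made 1 call, a lower gene, where it called 1.48% of all genes lower. The largest changes by p were Pcdh11x at -0.61 ± 0.16 (adjusted p = 0.0786) and Pcdh15 at -0.56 ± 0.16 (adjusted p = 0.0841). CA3 labelled Synpo-/- (6 against 6) had 1 of 64 at an unadjusted p under 0.05, where 7.27% of all genes were, and 0 by DESeq2, with 0.077% of all genes called. In whole cultures 0 of 63 were called in wildtype input (DESeq2 0, 5.61% of all genes called) and 0 of 64 in wildtype coIP (DESeq2 0, 0.314%). At an unadjusted p under 0.05 there were 2 and 5, where 19.5% and 12.2% of all genes were. Pcdh8 in input had a difference of -0.38 ± 0.16 (adjusted p = 0.201).

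The lesion moved other gene groups in the same DG libraries, and their part in the 2 calls was not tested. Of 12 immediate early genes 11 rose in DG labelled Synpo-/- (median 2.08) and 9 in wildtype DG (median 1.34). Astrocyte markers rose in 6 of 6 and 5 of 6 cases, from 3057 to 3672 CPM summed in controls to 5182 to 6716 CPM with the label Synpo-/-, and from 2691 to 3196 to 4616 to 6116 CPM in wildtype. Microglia markers rose in 7 of 8 and 8 of 8. Over all genes 5.17% rose and 3.36% fell in DG labelled Synpo-/-, and 7.86% rose and 4.31% fell in wildtype DG. Among genes that act with protocadherins few moved: in wildtype DG Cyfip1 (0.59), Axin1 (0.48) and Ncstn (0.57) rose and Cdh18 (-1.08) fell, and in DG labelled Synpo-/- Cdh13 (0.38) rose while Stag2 (-0.34), Cdh12 (-0.69) and Fat3 (-0.35) fell.

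The third comparison set cultures labelled Synpo-/- against wildtype. In all 4 contrasts edgeR and DESeq2 both called 0 protocadherins. Unadjusted p was under 0.05 for 8 of 65 genes in CA3 controls, 4 of 64 in CA3 ECL, 7 of 64 in DG controls and 6 of 65 in DG ECL, where 16.4%, 6.16%, 15.5% and 3.56% of all genes were under it. After adjustment 0.00413%, 0.00891%, 0.0166% and 0.0166% of all genes were called. The smallest adjusted p-values were 0.191, 0.808, 0.236 and 1.0. For Pcdh9 the DG control means were 281.5 CPM in both genotypes, and an interval of the log2 difference by normal approximation ran from -0.19 to 0.14. In CA3 controls Pcdh9 averaged 390.3 ± 20.9 CPM against 298.7 ± 31.4 in wildtype (0.33 ± 0.11, adjusted p = 0.193) and Pcdh17 109.5 ± 22.9 against 144.4 ± 13.1 CPM (-0.46 ± 0.16, adjusted p = 0.191), with 2 wildtype libraries. At these group sizes differences of this size did not pass the test.

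The last comparison asked which protocadherin mRNAs were recovered with synaptopodin. In wildtype control cultures 42 of 64 protocadherins were higher in coIP than in input and 0 lower, against 29.6% of all 18222 genes higher and 25.5% lower. The median log2 difference was 0.61, against 0.04 over all genes, and 60 of 64 were positive, a count for which no share over all genes was computed. By subfamily the higher genes were 10 of 11 non-clustered (median 0.64), 6 of 10 alpha (0.49), 11 of 21 beta (0.42), 8 of 11 gamma A (0.92), 3 of 6 gamma B (1.04) and 4 of 5 C-type (0.83).

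Pcdhgb4, a gamma B gene, had 1.95, 2.04, 2.32, 2.46 and 2.58 CPM in the inputs and 4.92, 5.14, 7.06, 7.11 and 7.25 CPM in the coIPs. Every coIP was above every input, with a log2 difference of 1.49 ± 0.18 (edgeR, adjusted p = 8.684e-06). Pcdhb17 had 11.9 to 18.0 CPM in the inputs and 24.9 to 36.1 CPM in the coIPs (0.99 ± 0.13, adjusted p = 1.496e-05). Pcdh8 had 7.60, 8.90, 9.25, 9.61 and 12.9 CPM in the inputs and 16.1, 16.2, 19.6, 23.3 and 23.9 CPM in the coIPs (1.05 ± 0.16, adjusted p = 6.519e-05). For both genes, too, the fractions did not overlap. Pcdh9, the most abundant, rose from 757.7 to 798.2 CPM in the inputs to 917.3 to 1161 CPM in the coIPs, a smaller difference of 0.46 ± 0.08 (adjusted p = 0.00018).

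Other non-clustered genes higher in coIP were Pcdh1 (0.91 ± 0.20), Pcdh10 (0.86 ± 0.12), a protocadherin that recruits the WAVE actin regulator, Pcdh15 (0.84 ± 0.17), Pcdh19 (0.84 ± 0.20), Pcdh7 (0.64 ± 0.09), Pcdh17 (0.64 ± 0.11), Pcdh20 (0.58 ± 0.09) and Pcdh11x (0.56 ± 0.15), whereas Pcdh18 was at 0.07 ± 0.28 and did not pass. C-type genes higher in coIP were Pcdhgc4 (1.12 ± 0.23), the isoform tied to neuronal survival, Pcdhgc5 (0.99 ± 0.29), Pcdhgc3 (0.83 ± 0.31) and Pcdhac2, at 14.7 to 21.4 CPM in input and 25.0 to 30.5 CPM in coIP (0.69 ± 0.11). Pcdhac1 did not pass (0.48 ± 0.21, adjusted p = 0.0637). Pcdhgb5 (1.74 ± 0.29) and Pcdhb21 (1.08 ± 0.19) completed the 5 clustered genes with the smallest p. By contrast Pcdhb9, the most abundant clustered gene and picked after its values were seen, had 54.6 to 63.7 CPM in input and 61.6 to 68.7 CPM in coIP. Its log2 difference was 0.10 (edgeR, adjusted p = 0.297), with an interval by normal approximation from -0.06 to 0.26.

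**Figure D4:**
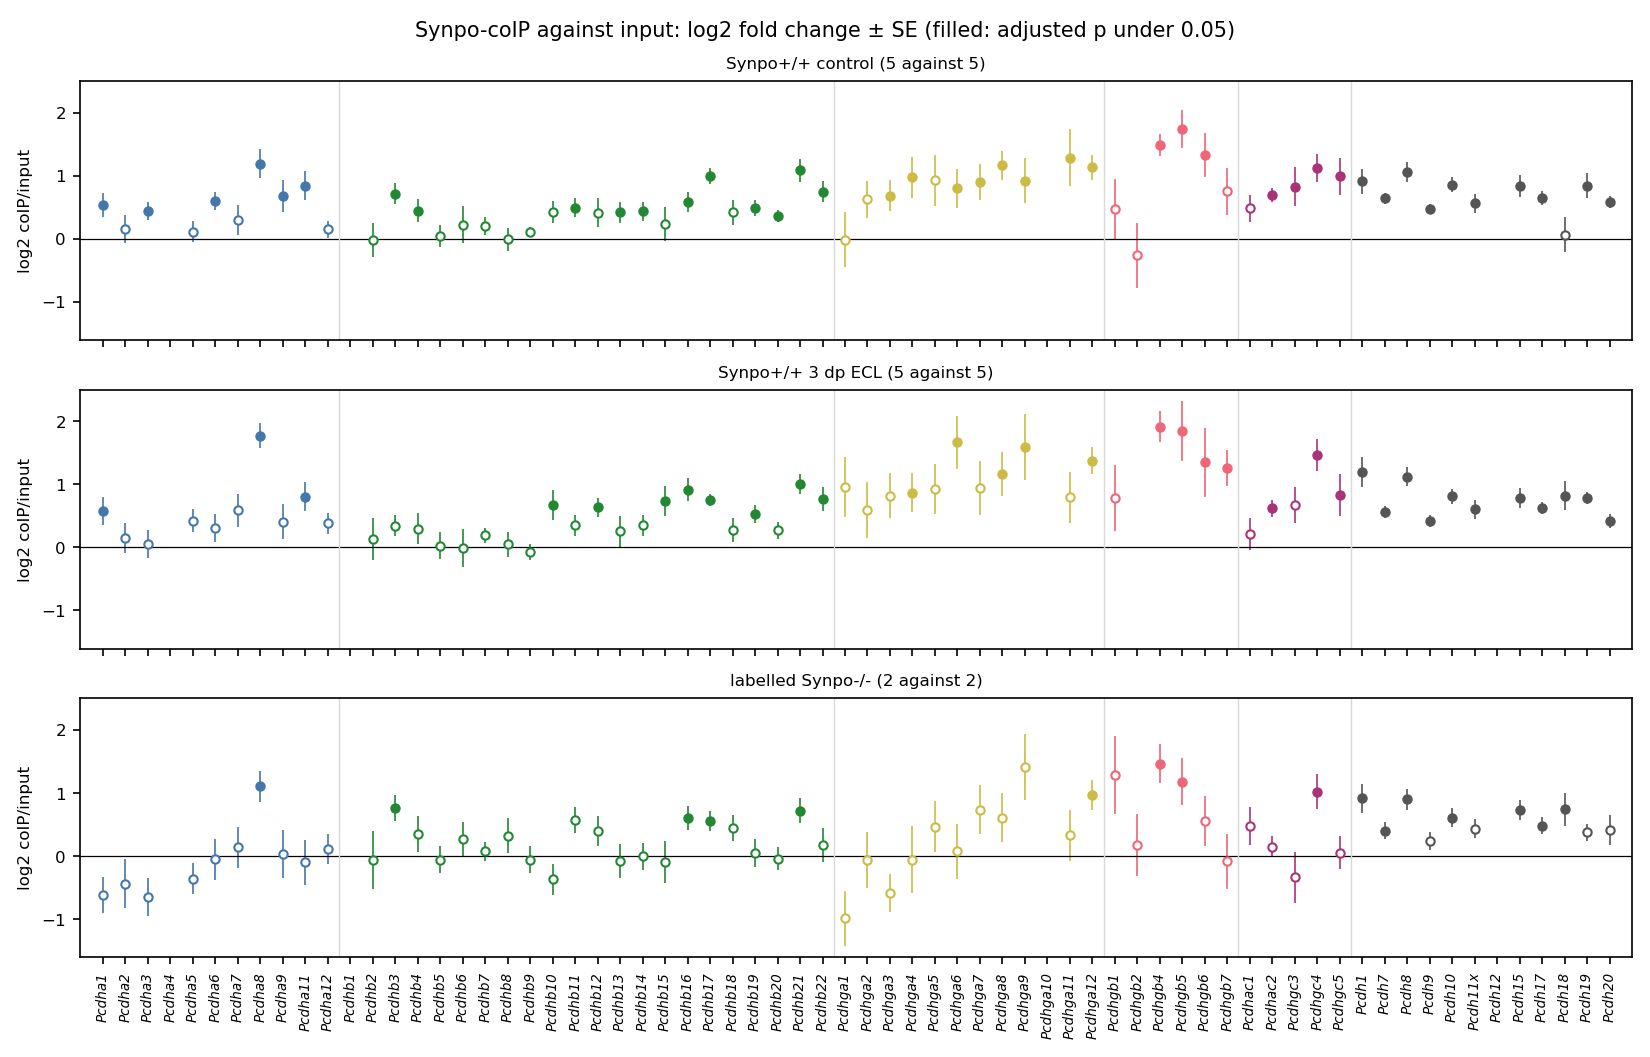
Log2 difference ± SE of coIP minus input for each tested protocadherin in wildtype control, wildtype ECL and labelled Synpo-/- pools, with filled points for genes passing the test. In wildtype controls 42 of 64 points are filled and all filled points are above 0.

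In wildtype ECL cultures 34 of 63 protocadherins were higher in coIP and 0 lower, against 30.5% and 27.8% of all genes, with a median of 0.68 against 0.02. They comprised 11 of 11 non-clustered, 3 of 10 alpha, 8 of 21 beta, 5 of 11 gamma A, 4 of 5 gamma B and 3 of 5 C-type genes. The smallest p among clustered genes belonged to Pcdha8 (1.77 ± 0.20, adjusted p = 7.682e-06) and Pcdhgb4 (1.92 ± 0.24, adjusted p = 1.743e-05), followed by Pcdhb17 (0.75 ± 0.10), Pcdhb21 (1.01) and Pcdhga12 (1.37). Pcdh8 (1.12 ± 0.15) and Pcdh19 (0.79 ± 0.10) were higher too, as was Pcdh18 (0.82). The control and ECL pools share no samples, and 29 genes were higher in both, which was 69.0% of the control and 85.3% of the ECL calls. The overlap of calls over all genes was not computed, so no background share can be set beside these.

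The coIP from pools labelled Synpo-/- serves as the background of the precipitation. There 16 of 64 protocadherins were higher in coIP than in input and 0 lower (2 pairs), against 15.0% of all genes higher and 16.4% lower, with a median of 0.30 against 0.02. Pcdh8 averaged 10.4 ± 0.538 CPM in input and 19.8 ± 0.333 CPM in coIP (SD, n = 2 each), and its lower coIP library, at 19.5 CPM, was above both inputs (0.90 ± 0.17, adjusted p = 0.00227). Pcdhgb4 had 1.46 and 2.08 CPM in input and 4.17 and 5.82 CPM in coIP (1.46 ± 0.31, adjusted p = 0.00402). Thus both were higher in coIP also where the label gives no synaptopodin. The other clustered genes with the smallest p were Pcdha8 (1.11 ± 0.25), Pcdhga12 (0.97 ± 0.24), Pcdhgc4 (1.02) and Pcdhb21 (0.72), and the non-clustered ones were Pcdh15 (0.73 ± 0.16), Pcdh10 (0.61 ± 0.15), Pcdh1 (0.92), Pcdh17 (0.49), Pcdh7 (0.40) and Pcdh18 (0.74). Pcdh9 (0.24, adjusted p = 0.202), Pcdh19 (0.38, 0.0528), Pcdh11x (0.44, 0.0516) and Pcdhac2 (0.15, 0.497) did not pass. Of these 16 genes 15 were also higher in wildtype control coIP, which was 93.8% of the 16 and 35.7% of the 42. Here too the overlap over all genes was not computed. Synpo mRNA itself was 0.47 higher in coIP in wildtype controls (adjusted p = 0.0107) and in wildtype ECL (0.47, adjusted p = 0.00134), and -0.03 in pools labelled Synpo-/- (adjusted p = 0.896).

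The difference between wildtype control and labelled Synpo-/- enrichment was tested directly and was called for 0 of 64 protocadherins (edgeR, DESeq2 0), against 0.0% of all genes, and 5 were at an unadjusted p under 0.05, where 7.33% of all genes were. The difference was positive, that is higher in wildtype, for 48 of 64 with a median of 0.19, against 0.01 over all genes. By subfamily it was positive for 9 of 10 alpha genes (median 0.56), 10 of 11 gamma A (0.64), 4 of 5 C-type (0.49), 9 of 11 non-clustered (0.11), 13 of 21 beta (0.07) and 3 of 6 gamma B genes (0.24). The share of positive differences over all genes was not computed. All genes were measured in the same libraries, so these sign counts are description only. The 2 coIPs labelled Synpo-/- differed for some alpha genes, with 3.18 and 6.33 CPM for Pcdha3 and 2.44 and 6.22 for Pcdha9. For others they were close, with 2.44 and 2.54 CPM for Pcdha1 and 7.18 and 6.89 for Pcdha12. The difference in enrichment was -0.02 for Pcdhgb4, with an interval by normal approximation from -0.67 to 0.62. For Pcdh8 it was 0.11, with such an interval from -0.43 to 0.64. Pcdhac2 had 18.5 and 18.6 CPM in input and 20.1 and 22.2 in coIP with the label Synpo-/-, and its difference in enrichment was 0.49 ± 0.19 (adjusted p = 0.606). The largest by p were Pcdha1 (1.10 ± 0.33) and Pcdha3 (1.03 ± 0.33), both with adjusted p = 0.519. With 2 labelled Synpo-/- pairs these intervals are wide. Total counts were 42886994 to 53682143 in the libraries labelled Synpo-/- and 12888443 to 26730691 in the wildtype control libraries. Genotype label and depth thus went together in this term, and the part of depth was not tested.

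Exon length moved with the enrichment. After a trend of fold change on exon length was removed over all genes, the non-clustered genes higher in coIP numbered 6 of 11 in wildtype controls (median 0.28), 6 of 11 in wildtype ECL and 2 of 11 with the label Synpo-/- (from 10, 11 and 7), and beta genes were 12, 11 and 5 of 21 (from 11, 8 and 4). In the same order the alpha genes were 3, 1 and 1 (from 6, 3 and 1), gamma A 7, 5 and 1 (from 8, 5 and 1), gamma B 3, 4 and 2 (as before) and C-type 3, 2 and 1 (from 4, 3 and 1). In these fits 29.0%, 30.5% and 14.6% of all genes were higher. Other cell-surface and regulatory genes shared the direction in wildtype controls: 21 of 25 other cadherins were higher in coIP (Clstn1 0.85, Celsr2 1.12, Fat1 1.03), as were 10 of 14 cluster regulators (Nipbl 0.77, Smchd1 0.81, Setdb1 0.90). Partners went both ways, with 11 of 17 higher (Nlgn2 1.17, Ctnnb1 0.66, Nckap1 0.64) and 5 lower (Abi1 -0.79, Brk1 -0.75, Abi2 -0.45), and of the protease genes Psenen was lower (-0.61). With the label Synpo-/- 11 other cadherins, 7 regulators and 5 partners were higher, and 1, 0 and 3 lower. These counts come from the main fits, without trend removal. There 29.6% of all genes were higher and 25.5% lower in wildtype controls, and 15.0% and 16.4% with that label. Among cell type markers in wildtype controls, the 7 CA3 markers summed to 924.2 to 1281 CPM in input and 556.0 to 751.7 CPM in coIP, without overlap (2 higher, 2 lower by gene). The 5 Cajal-Retzius markers did not overlap either and were higher in coIP (97.3 to 124.2 against 62.7 to 77.3 CPM, 3 of 4 tested called), whereas the microglia sums (396.2 to 784.1 against 556.2 to 1089 CPM, 3 of 8 lower) and the interneuron sums (846.7 to 2215 against 1318 to 3556 CPM, 4 of 8 lower and 1 higher) overlapped. Microglia markers were lower in 7 of 8 cases in wildtype ECL and in 5 of 8 with the label Synpo-/-, where 27.8% and 16.4% of all genes were lower. The part of these shifts in the protocadherin differences was not tested.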

How the data were processed

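Per the labels, the authors trimmed reads with cutadapt 3.5, aligned them with STAR 2.7.8a to GRCm38 and counted exons per gene symbol with featureCounts 2.0.1, without strand, and the deposited values are raw counts per gene with no normalization. The 63 libraries were grouped by their labels. Protocadherin members and gene lists were chosen with earlier results of these data known. Counts were tested in R 4.3.3 with edgeR 4.0.16 (quasi-likelihood, TMM, expression filter), with Benjamini-Hochberg adjustment over all genes and a threshold of 0.05, and SE was taken from the F statistic. Intervals of log2 differences apply a normal approximation to this SE and are narrower than the test itself implies. CPM, the usual per-megaread scale, used TMM-scaled totals, and all log2 differences are from these fits. Regional and coIP tables were fitted separately. Alternatives were DESeq2 1.42.0, RLE factors, no filter, a mean normalized count over 300, length and GC trends removed (lowess, span 0.3), the replicate block and leaving out each library. On simulated data 149 to 198 of 200 genes changed 4-fold were called in each of 20 fits, and at most 19 unchanged ones. Smaller changes were not simulated.

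Named were all non-clustered and C-type genes, and per comparison up to 5 called clustered genes per direction, ranked by p, every called gene where a direction had 5 or fewer, up to 3 called genes per direction from each other list, and Synpo, while markers were given as summed levels. The result of 1 protease gene is not reported here. Input and coIP numbers pair aliquots of 1 lysate, with correlations of deviations of 0.119 to 0.298 (wildtype control), 0.0645 to 0.224 (wildtype ECL) and 0.0411 (labelled Synpo-/-). Titles of the inputs labelled Synpo-/- hold 2 numberings that disagree on the partner coIP. The preparation number was followed, so that pairing is uncertain. Overlapping genes counted without strand include Pcdh8, Pcdh10, Pcdhb12 and Pcdhgc3, each with an antisense transcript, and Pcdh7, Pcdhga12, Pcdhb21 and Pcdhb22 with an overlapping gene, so their counts are uncertain. Depth as total counts limits the precision of low genes.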

Additional observations from a re-analysis of the deposited data

Results flagged for a closer look

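Of 120 groups of 4 to 10 libraries checked for a single library far from the others, 8 were flagged, and chance flags about 1 in 20. A set of 4 flags came from DG replicate 5 of the wildtype ECL group, the library with low Prox1. Its non-clustered genes summed to 1200.0 CPM, against 773.7 to 898.3 CPM in the other 6 libraries of the group. Its Pcdh7 was at 254.2 CPM (others 89.96 to 122.3), its Pcdh9 at 392.9 CPM (others 241.4 to 281.1) and its Pcdh20 at 201.3 CPM (others 97.29 to 125.9). The other flags each concerned 1 gene in 1 library. Pcdh9 was at 329.5 CPM in wildtype DG control replicate 1 (others 261.1 to 272.4). Pcdh17 was at 111.4 CPM in DG control replicate 1 labelled Synpo-/- (others 78.18 to 91.61) and at 76.08 CPM in wildtype ECL input replicate 2 (others 65.68 to 68.07). Pcdhac2 was at 6.231 CPM in DG control replicate 5 labelled Synpo-/- (others 3.432 to 4.491).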

How the results depend on the processing

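The number of protocadherins called moved by more than 1.5 times in the following cases, and the cause was not tested. The share of all genes called under the same setting is not set beside these counts. They show how the calls moved with the setting and say nothing of protocadherins against other genes. Between regions in wildtype controls (2 called) it was 4 with no filter on low counts, 4 after removing length and GC trends, 1 with the replicate block, and 0 to 2 with 1 library left out, with 0 without CA3 replicate 2 and 1 without DG replicate 2. Between regions in wildtype ECL (1 called) it was 5 with DESeq2, 5 with no filter, 2 after length and GC, 9 with the block, and 0 to 11 with 1 library left out, with 0 without CA3 replicate 1, 2 or 3 and 11 without DG replicate 5. Between regions labelled Synpo-/- it was 7 of 13 in controls when only genes over a mean normalized count of 300 were kept, and in ECL (7 called) 4 to 5 with 1 library left out, with 4 without DG replicate 1. After ECL in wildtype CA3 (0 called) it was 1 with DESeq2 and 2 with no filter. After ECL in wildtype DG (1 called) it was 0 over a count of 300, 5 with DESeq2, 3 with RLE size factors, 0 with no filter, 3 after length, 2 after length and GC, 3 with the block (Pcdh15, Pcdh8 and Pcdhb14, not Pcdhb3), and 0 to 4 with 1 library left out. After ECL in DG labelled Synpo-/- (1 called) it was 5 with DESeq2, 3 after length, 0 with the block, and 0 to 2 with 1 library left out, with 0 without ECL replicate 3 and 2 without ECL replicate 2 or 4. Between genotypes the block gave 4 calls in CA3 controls and 1 in CA3 ECL. For coIP against input, genes over a count of 300 gave 13, 11 and 9 calls in wildtype control, wildtype ECL and labelled Synpo-/- pools, and with the label Synpo-/- leaving out 1 library gave 7 to 15, with 7 without input replicate 2 and 10 without input replicate 1. Regional replicate numbers share a number only: in the control regions labelled Synpo-/- the 6 pairs correlated between -0.0441 and 0.47, and 2 of 6 libraries correlated best with their own number. The coIP and input pairs share a lysate, and the block changed no other count by more than 1.5 times. Scaled to raw library totals, the summed CPM was 27.5 for C-type and 1051 for non-clustered genes in wildtype control input, and 1082 in CA3 and 884.7 in DG for non-clustered genes labelled Synpo-/-. With all exon bases counted, median levels per kb in that input were 0.827 for alpha, 0.254 for gamma A, 0.19 for gamma B and 0.613 for C-type genes. Of 989 alternatives for 74 named results, 867 kept their direction and call, 122 kept the direction and lost the call, and 0 changed direction. Counted by result, 22 of the 74 were the same in all their alternatives. Low counts limit what can be said of Pcdha4, Pcdhb1, Pcdh12 and Pcdhga10.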
